A study of Mus musculus and blank sample with 191 samples.

Results

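The regions described here were 20 gland-marker rich and 20 gland-marker poor regions of mouse uterine epithelium, taken from the 60 first-plate regions labelled epithelium among 189 regions in the whole series. The members were chosen by measured values: each region was ranked by the mean of log2(CPM + 1) of Foxa2 and Cxcl15, where CPM scales the counts of a region to a common total. The 20 highest formed the rich class and the 20 lowest the poor class, so the levels of these 2 genes are a description and carry no test. The labels of the regions give epithelium or stroma and do not separate the lumen from the glands.

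The series profiled regions of formalin-fixed uterus with the GeoMx Whole Transcriptome Atlas, a panel of barcoded probes that light releases from a chosen region and that are then counted by sequencing. The labels hold 6 PV/N mice (called PV here), which carry 1 PV allele of Thra1, the gene of a thyroid hormone receptor, beside a normal one, and 8 N/N mice, the wild type (called WT). The design text counts 13 mice, with 7 of them wild type, and which count is right could not be settled, so the WT number of 8 rests on the animal numbers in the labels. PV mice were 2.4 to 6.3 and WT mice 4.0 to 9.0 months old, if the bare age numbers of the labels are months. The mutant receptor is present in every tissue that expresses the gene and interferes with the normal one. A pathologist placed the regions by shape and by staining for cytokeratin and smooth muscle actin, so keratin and actin genes are not independent of the outlines.

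Uterine epithelium runs without a break from the lumen, which faces the embryo, into glands that branch down into the stroma and secrete factors an implanting embryo needs. Foxa2 is a forkhead transcription factor that in the adult mouse uterus is found in the glands and is required for them to form and work. Cxcl15 is a chemokine used as a marker of the same glands. Wnt7a, by contrast, is a ligand of the luminal side that takes part in patterning the tract and in gland formation.

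All 60 first-plate epithelium regions stood apart from the stroma in their markers. The mean log2 level of columnar epithelium genes (12 genes), less the mean over 10 fibroblast genes, was -0.26 or higher in epithelium and -3.08 or lower in the 35 stroma regions. The second plate did not hold to its labels in this way. There 18 of 57 regions labelled epithelium lay on the stroma side of the midpoint of -1.67, and 18 of 37 regions labelled stroma lay on the epithelium side. The second plate therefore served only as a separate set of regions, restricted to the 39 epithelium regions on their own side.

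Promoters of 2 gland genes are shown for their forkhead letters, since Foxa2 is a forkhead factor, and both were picked because they hold a match. Each window spans 250 bases before to 50 bases after the start in RefSeq (GRCm38.p6) and is written 5′ to 3′ on the strand of the gene. Both strands were searched for the letters TGTTTAC. The letters TGTTTGC and the letters TATTTAC were searched too, and capitals mark a match. The Cxcl15 window is chr5:90794284-90794583 (plus strand), with the match 238 bases before the start. The Wfdc15b window is chr2:164221614-164221913 (minus strand), with the match 111 bases before the start.
Cxcl15: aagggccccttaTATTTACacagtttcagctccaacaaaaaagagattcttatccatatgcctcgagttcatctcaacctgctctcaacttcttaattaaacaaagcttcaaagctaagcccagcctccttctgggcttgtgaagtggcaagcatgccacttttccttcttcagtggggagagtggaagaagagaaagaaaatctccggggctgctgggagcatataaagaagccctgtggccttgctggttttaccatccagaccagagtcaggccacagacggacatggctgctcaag
Wfdc15b: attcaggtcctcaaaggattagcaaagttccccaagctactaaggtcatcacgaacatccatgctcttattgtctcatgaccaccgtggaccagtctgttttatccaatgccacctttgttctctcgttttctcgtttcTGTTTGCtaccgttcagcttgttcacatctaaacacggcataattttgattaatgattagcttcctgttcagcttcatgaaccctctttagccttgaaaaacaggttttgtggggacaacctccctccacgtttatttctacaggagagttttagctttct
Of all 32851 promoter windows, 11.2% held at least 1 of the 3 sequences, and of the 11778 windows of tested genes 9.61%. A match was found for 2 of 9 windows of the uterine gland list, for 1 of 8 windows of the 10 genes with the largest rise and for 1 of 2 ranking genes, Cxcl15 and not Foxa2. Among the genes called below, the share was 11% of 516 windows of genes higher in rich regions and 8.43% of 688 windows of genes lower there. A match describes letters only.

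The rich regions scored 5.06 to 7.74 (median 6.98) and the poor regions 2.61 to 4.00 (median 3.57). At the upper boundary the last region taken scored 5.06 (WT2) and the first left out 5.05 (WT3), and at the lower boundary the values were 4.00 (PV1) and 4.01 (WT3), so neither boundary fell in a gap. Foxa2 stood at 5.29 to 8.55 (median 6.12) log2(CPM + 1) in rich and at 2.12 to 4.57 (median 3.36) in poor regions. Cxcl15 stood at 4.55 to 9.09 (median 7.94) in rich and at 2.98 to 4.54 (median 3.71) in poor regions. The 35 stroma regions of the plate, a background for both genes, had medians of 3.38 for Foxa2 and 4.49 for Cxcl15, both above the medians of the poor regions. The raw counts behind these levels had medians of 41 for Foxa2 and 144 for Cxcl15 in rich regions, and of 8 and 12 in poor regions. Foxa2 lies on GRCm38 chromosome 2, 148042877 to 148046969 (minus strand), and Cxcl15 on chromosome 5, 90794534 to 90803067 (plus strand), in GENCODE vM21.

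**Figure D1:**
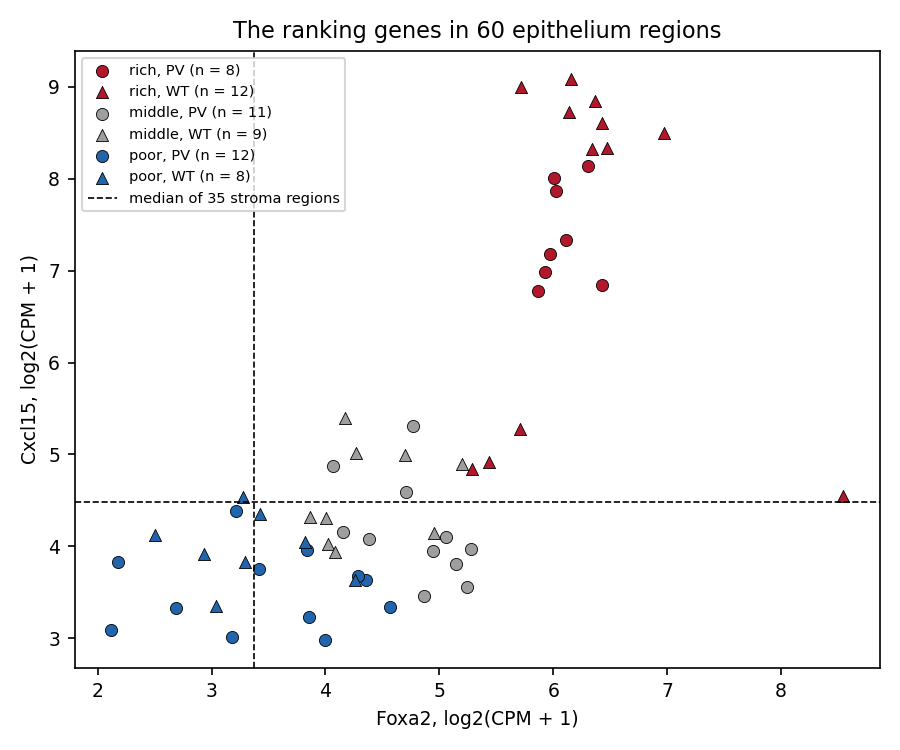
Level of Foxa2 (x axis) and of Cxcl15 (y axis), both as log2(CPM + 1), in the 60 first-plate epithelium regions, coloured by class and shaped by genotype, with dashed lines at the medians of the 35 stroma regions. The rich regions form a group high in Cxcl15 and, apart from it, 4 WT regions at 4.55 to 5.27 for Cxcl15, of which 1 has the highest Foxa2 of all (8.55).

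Across the 60 regions the 2 ranking genes had a Pearson r of 0.72 and a Spearman rho of 0.73, a description over points that share mice, depth and scaling. A WT5 region had the highest Foxa2 (8.55) beside a Cxcl15 of 4.55, near the stroma median. All rich regions of WT2, WT5 and WT6 had a Cxcl15 of 4.55 to 5.27, within the stroma range of 3.15 to 5.58. Their Foxa2, at 5.29 or higher, lay above the stroma range of 2.28 to 4.63. WT5 and WT6 are among the mice that held both classes. Ranking by Foxa2 alone kept 20 of the 20 rich and 16 of the 20 poor regions, and ranking by Cxcl15 alone kept 17 and 15.

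The classes also differed in features other than gland genes. Rich regions held 150701 to 1326300 counts (median 656234) and poor regions had a median of 1066970, and the score had a Spearman rho of -0.40 with the total count. The columnar minus fibroblast value was -0.13 to 1.78 (median 0.48) in rich regions and had a median of 1.75 in poor regions. The fibroblast score itself had medians of 6.68 in rich and 6.41 in poor regions. In such regions fewer cells of a type and less RNA per cell cannot be told apart.

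Rich regions came from 10 mice and poor regions from 10 mice, and 8 mice (PV1, PV4, PV5, WT4, WT5, WT6, WT7 and WT8) held both. Of the PV regions 8 were rich and 12 poor, and of the WT regions 12 were rich and 8 poor. Rich regions were found in 3 of 6 PV mice and in 7 of 8 WT mice. Genotype played no part in the ranking, so the mean score of all first-plate epithelium regions of a mouse was compared between genotypes. It was 4.66 ± 0.36 (SD, n = 6) in PV mice, with 4.26, 4.56 and 5.13 as the lowest, median and highest, and 5.22 ± 0.79 (SD, n = 8) in WT mice, with 4.26, 5.22 and 6.14. The ranges overlapped, and 4 WT mice lay above the highest PV mouse. The difference of -0.56 gave an exact two-sided permutation p of 0.132 over 3003 divisions of the mice (smallest possible 0.000333), so no difference was shown. With any 1 WT mouse left out the difference was -0.70 to -0.43 (exact permutation p 0.0647 to 0.224). PV2 had 1 region of 61691 counts, with a Foxa2 count of 2 and a Cxcl15 count of 1, which may stand for a 0. Its score of 4.58 is therefore weak. On probe counts with true zeros the lowest PV mouse stood at 2.60, and the difference was -0.89 (exact permutation p 0.0699). Without PV2 the difference was -0.54 (exact permutation p 0.181).

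By age the mean score was 5.21 ± 0.64 (SD, n = 6) in mice under 5 months and 4.80 ± 0.70 (SD, n = 8) in older mice, a difference of 0.41 with an exact permutation p of 0.279. PV2 is among the younger mice, and on probe counts with true zeros the difference by age was 0.08 (exact permutation p 0.885). Age and genotype were unevenly joined, with 4 PV and 2 WT mice in the younger class. Younger minus older was 1.00 within the WT mice (2 against 6, exact permutation p 0.179) and 0.53 within the PV mice (4 against 2, exact permutation p 0.133). PV minus WT was -1.13 within the younger mice (exact permutation p 0.0667, the smallest that this division can give) and -0.66 within the older mice (exact permutation p 0.179).

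**Figure D2:**
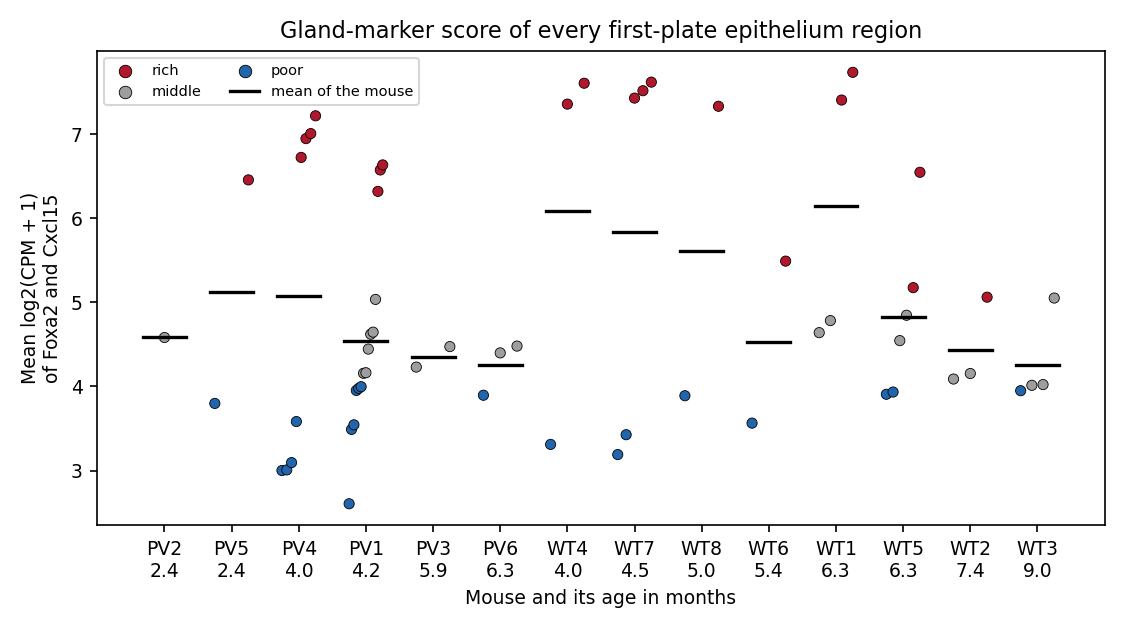
Gland-marker score of each first-plate epithelium region (y axis, mean log2(CPM + 1) of Foxa2 and Cxcl15) by mouse (x axis, with age in months), coloured by class, with a bar at the mean of the mouse. PV4, PV5, WT4, WT6, WT7 and WT8 hold rich and poor regions with none of the middle class, while PV2, PV3, PV6 and WT3 hold no rich region.

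Which other genes went with the ranking was tested in the 8 mice with both classes. Counts were summed per mouse and class, and each mouse was its own control (edgeR, adjusted p under 0.05 over 14879 genes, without Foxa2 and Cxcl15). The p-values measure how firmly a gene followed the ranking across mice. In these sums 699 genes (4.7%) were higher in rich regions and 880 (5.91%) lower, or 10.6% in all. These shares are the background for the counts of each gene list below. The count was 919 without PV4 and 1036 without WT7. With upper-quartile scaling the balance turned to 892 higher and 662 lower. Among the called genes 289 were higher and 407 lower in every one of the 8 mice, while 2.71% and 3.69% of all genes tested, called or not, had such a direction in every mouse. In PV5 the rich sum held 150701 counts, and a count of 1, which may stand for a 0, gave 2.96 log2 CPM there. The direction of low genes in that mouse is therefore weak. In the same sums Foxa2 was 8.87 times and Cxcl15 12 times higher in rich regions, as the ranking fixed.

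Of the 10 tested genes of the uterine gland list, 2 rose in rich regions and 0 fell (median log2 fold change 0.37, against 0.00 over all genes). Wfdc15b, a small whey acidic protein secreted by epithelia, stood at 3.97, 6.57 and 7.80 log2 CPM (lowest, median and highest of the 8 mice) in rich sums and at 3.30, 4.27 and 5.09 in poor sums. It was higher in 8 of 8 mice, and rose by 2.64 ± 0.32 on the log2 scale (± SE throughout; adjusted p 0.000428), with ranges that overlapped between mice. Sox9, a transcription factor of gland and progenitor cells, stood at 5.36, 6.72 and 7.95 in rich and at 4.37, 5.45 and 7.52 in poor sums, and rose by 1.15 ± 0.28 (adjusted p 0.0178). Its ranges overlapped widely, while it was higher in 8 of 8 mice. The other 8 did not pass. Wfdc3 gave 1.00 ± 0.34 (adjusted p 0.0776, higher in 7 of 8 mice), and Aldh1a1, which makes retinoic acid, 0.54 ± 0.31. Spink1, a trypsin inhibitor, gave 0.46 ± 0.23 and Lgr5, a receptor for R-spondins, 0.28 ± 0.22. Prom1 (-0.09 ± 0.28), Gal (-0.09 ± 0.16) and Slc18a2 (-0.06 ± 0.21) had changes close to 0. Over both classes Prom1 stood at 6.21 to 10.04 log2 CPM, but Gal at 2.94 to 4.48, Slc18a2 at 2.14 to 4.66 and Spink1 at 2.14 to 4.04. The negative probes had medians of 4.68 CPM in rich and 4.11 CPM in poor regions, not on the log2 scale. A change in genes as low as the last 3 may be missed. Lif, the cytokine that glands release for implantation, gave -0.43 ± 0.40 although it was higher in 6 of 8 mice, with PV1 at -2.94. Prss28, Prss29 and Ttr were not among the targets kept.

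Of the 6 luminal genes 4 fell in rich regions and 0 rose (median log2 fold change -2.23). Wnt7a (chromosome 6, 91363981 to 91411363, minus strand) stood at 1.96, 3.08 and 7.74 log2 CPM in rich and 4.66, 6.48 and 8.30 in poor sums and fell by 2.94 ± 0.47 on the log2 scale (adjusted p 0.00187, lower in 8 of 8 mice). The falls were smallest in PV5 and WT5, where the differences were -0.56 and -0.81. Lpar3, the lysophosphatidic acid receptor needed for embryo spacing, stood at 3.14, 3.85 and 5.36 in rich and 3.83, 5.25 and 7.32 in poor sums and fell by 1.99 ± 0.41 (adjusted p 0.00708, lower in 7 of 8). Wnt11 fell by 1.64 ± 0.42 (adjusted p 0.0223, lower in 6 of 8). Calb1, a calcium-binding protein, gave -2.47 ± 0.87 (adjusted p 0.0891), with single mice from -6.21 to 2.00. The homeobox gene Msx1 gave 0.34 ± 0.16 (adjusted p 0.2).

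**Figure D3:**
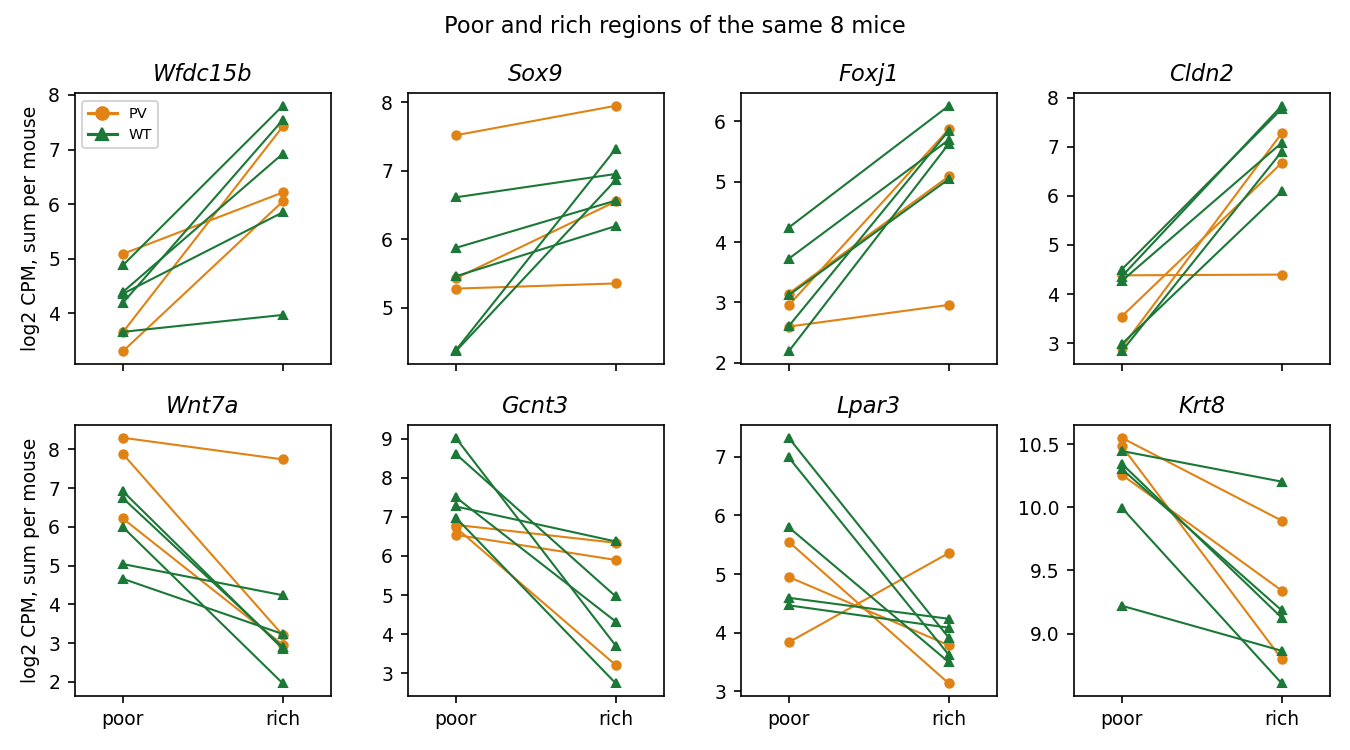
Level of 8 genes (y axis, log2 CPM of the summed counts) in the poor and rich regions of each of the 8 mice that hold both classes, joined by a line per mouse and coloured by genotype. Wfdc15b, Sox9, Foxj1 and Cldn2 are higher in rich regions in all 8 mice, Cldn2 by 0.02 in PV5, and Wnt7a, Gcnt3 and Krt8 are lower in all 8, while Lpar3 is lower in 7.

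Of 12 tested gland development genes 1 rose and 3 fell (median -0.15). Klf9, a Krüppel-like factor induced by thyroid and steroid hormones, stood at 4.76, 5.58 and 6.28 log2 CPM in rich and 3.84, 4.88 and 5.13 in poor sums and rose by 0.98 ± 0.19 (adjusted p 0.00499, higher in 7 of 8 mice). Over regions its median was 6.61 log2(CPM + 1) in stroma, above 5.49 in rich and 4.36 in poor epithelium. Wnt4 fell by 1.36 ± 0.19 (adjusted p 0.00105, lower in 7 of 8), Wnt7b by 0.72 ± 0.21 (adjusted p 0.0397, 6 of 8) and Ctnnb1, which encodes beta-catenin, by 0.47 ± 0.11 (adjusted p 0.0166, 8 of 8). The estrogen receptor Esr1 gave 0.33 ± 0.17 (adjusted p 0.26), the progesterone receptor Pgr -0.60 ± 0.31 (adjusted p 0.259) and the hedgehog ligand Ihh 0.38 ± 0.15 (adjusted p 0.122). Hoxa10 (0.10 ± 0.18), Hoxa11 (0.16 ± 0.13), Wnt5a (-0.11 ± 0.18), Sox17 (-0.20 ± 0.23) and Lef1 (-0.27 ± 0.22) did not pass either. In the Wnt list of 21 genes, which shares members with the lists above, 6 fell and 0 rose (median -0.10). They were the ligands Wnt4, Wnt7a, Wnt7b, Wnt11 and Wnt16 (0.97 ± 0.21 lower) and Ctnnb1.

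The 10 genes with the largest rise among those higher in every mouse were Cyp2f2, Cldn2, Hp, Fbln7, Bpifb5, Gas6, Igkc, C4bp, Degs2 and Wfdc15b. Cyp2f2, a cytochrome P450 of secretory airway cells, stood at 6.15, 6.61 and 9.38 log2 CPM in rich and 1.89, 3.80 and 5.99 in poor sums. These ranges did not overlap, and Cyp2f2 rose by 3.49 ± 0.36 (adjusted p 0.000243). Haptoglobin (Hp), which binds free haemoglobin, stood at 4.82, 6.03 and 7.66 in rich and 1.47, 3.00 and 3.60 in poor sums, again without overlap, and rose by 3.35 ± 0.30 (adjusted p 5.24e-05). Of all genes tested 0.309% had per-mouse ranges without overlap. Cldn2, a pore-forming claudin of tight junctions, stood at 4.40, 6.99 and 7.83 in rich and 2.83, 3.90 and 4.50 in poor sums and rose by 3.39 ± 0.27 (adjusted p 1.86e-05), although PV5 differed by only 0.02. Gas6, a ligand of the TAM receptor kinases, stood at 5.36, 8.07 and 9.16 in rich and 4.01, 4.89 and 6.12 in poor sums and rose by 2.93 ± 0.34 (adjusted p 0.000404). Its stroma median was 7.26 log2(CPM + 1), between 4.25 in poor and 8.78 in rich regions. The matrix protein gene Fbln7 rose by 3.14 ± 0.23, Bpifb5, of a family of secreted lipid-binding proteins, by 3.11 ± 0.47, C4bp, which encodes a complement regulator, by 2.84 ± 0.20 and Degs2, a sphingolipid desaturase, by 2.81 ± 0.22. In PV5 Fbln7 and C4bp stood at 2.96 in the rich sum, the level of a count of 1, against 1.47 and 2.60 in the poor sum. For Cyp2f2, Cldn2, Hp, Fbln7, Bpifb5, C4bp and Degs2 the stroma medians of 3.50 to 4.11 log2(CPM + 1) were under those of rich regions.

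Among the 10 largest falls of genes lower in every mouse were Prap1, Wnt7a, Cfb, Gcnt3, Ly6c1, Ptprr, Laptm5, Irf7 and Muc4. Prap1, a proline-rich acidic protein secreted by the uterine lining, stood at 3.35, 6.26 and 9.25 log2 CPM in rich and 6.37, 10.41 and 13.00 in poor sums and fell by 4.73 ± 0.68 (adjusted p 0.00119). Gcnt3, an enzyme that branches mucin sugar chains, stood at 2.74, 4.64 and 6.37 in rich and 6.54, 7.13 and 9.03 in poor sums, with no overlap, and fell by 2.75 ± 0.50 (adjusted p 0.00401). The membrane mucin Muc4 fell by 2.27 ± 0.36, complement factor B (Cfb) by 2.80 ± 0.40 and the phosphatase Ptprr by 2.43 ± 0.22 (adjusted p 0.00187, 0.00119 and 5.66e-05). Irf7, a driver of interferon genes, fell by 2.28 ± 0.29 and the lysosomal Laptm5 by 2.28 ± 0.28. Ly6c1 fell by 2.66 ± 0.44, and because Ly6 genes have near-identical copies its probe may read more than 1 of them. Over the single regions 0 of 14879 genes (0.0%) had ranges without overlap between the 20 rich and 20 poor regions.

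Of 12 columnar epithelium genes 6 fell in rich regions and 0 rose (median -0.55). Krt8, a keratin of simple epithelia, stood at 8.61, 9.15 and 10.20 log2 CPM in rich and 9.22, 10.32 and 10.55 in poor sums and fell by 0.95 ± 0.16 (adjusted p 0.00214, lower in 8 of 8 mice). The tight junction gene Cldn7 fell by 1.22 ± 0.16, the transcription factor gene Ovol1 by 1.20 ± 0.20 and Krt19 by 1.04 ± 0.19, whereas Krt18 gave -0.07 ± 0.11 and Krt7 0.00 ± 0.23. Epcam, an adhesion protein of epithelia, gave -0.45 ± 0.16 (adjusted p 0.0852), the fibroblast gene Dcn 0.41 ± 0.20 (adjusted p 0.238) and Col1a1 0.15 ± 0.19 (adjusted p 0.699). Of 7 tested squamous genes Sfn fell by 1.26 ± 0.23 and Krt15 by 0.67 ± 0.18, and 0 rose. Krt5, Krt14 and Trp63, which define basal cells, were not among the targets kept.

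Secretory genes divided. In the list of estrogen-induced secretory genes 3 of 9 fell and 1 rose (median -0.81). Complement C3 fell by 2.09 ± 0.36 (adjusted p 0.00283), Lcn2, which binds siderophores, by 1.58 ± 0.36 (adjusted p 0.0125) and the membrane mucin Muc1 by 0.81 ± 0.15 (adjusted p 0.00463), each lower in 8 of 8 mice. Clusterin (Clu) rose by 1.58 ± 0.37 (adjusted p 0.0148, higher in 6 of 8). Of 14 secretory pathway genes 4 rose and 0 fell (median 0.07). Agr2, a disulfide isomerase of secretory cells, stood at 3.73, 4.56 and 6.45 log2 CPM in rich and 1.47, 2.67 and 3.59 in poor sums, without overlap, and rose by 2.21 ± 0.26 (adjusted p 0.000428), but gave -0.36 when all mice were compared without pairing. The unfolded protein response factor Xbp1 rose by 1.09 ± 0.19 (adjusted p 0.00359), the secretory cell factor Spdef by 1.13 ± 0.23 (adjusted p 0.00744) and Creb3l1 by 0.63 ± 0.19 (adjusted p 0.0474). Sec61b (-0.04 ± 0.15) and Ssr4 (-0.14 ± 0.12), general parts of the translocation machinery, did not pass.

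Of 5 tested ciliated cell genes 2 rose and 0 fell (median 0.27). The summed CPM of the whole list was 70.8 to 281 (median 118) in rich, 44.5 to 311 (median 90.9) in poor and 86.6 to 642 (median 228) in stroma regions. Foxj1, the transcription factor that drives motile cilia, stood at 2.96, 5.66 and 6.26 log2 CPM in rich and 2.19, 3.03 and 4.24 in poor sums and rose by 2.49 ± 0.21 (adjusted p 4.72e-05, higher in 8 of 8 mice). Its lowest rich level, 2.96, is after rounding that of a count of 1 in PV5. Cfap126, a gene of the cilium, rose by 1.08 ± 0.19 (adjusted p 0.00361), with ranges that did not overlap. Rsph1 (0.27 ± 0.15), Tppp3 (-0.30 ± 0.20) and Dnah5 (-0.12 ± 0.17), which also belong to motile cilia, did not pass.

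Of the 9 tested thyroid hormone genes 3 rose and 0 fell (median 0.07). Besides Klf9 they included Thra, the receptor gene that is mutated in PV mice, which rose by 0.65 ± 0.12 (adjusted p 0.0038, higher in 8 of 8). Thra stood at 5.01, 5.57 and 7.39 log2 CPM in rich and 4.50, 4.96 and 6.82 in poor sums, so mice of a class spread more widely than the classes differed, and its count does not separate the mutant from the normal allele. Thrb gave 0.31 ± 0.20, Dio2 -0.80 ± 0.26 (adjusted p 0.0685) and Hr -0.17 ± 0.18. Il33, an alarmin of barrier epithelia, stood at 2.89, 3.84 and 8.26 in rich and 3.35, 4.05 and 6.00 in poor sums and gave -0.17 ± 0.52 (adjusted p 0.908), with PV5 alone at 4.43.

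**Figure D4:**
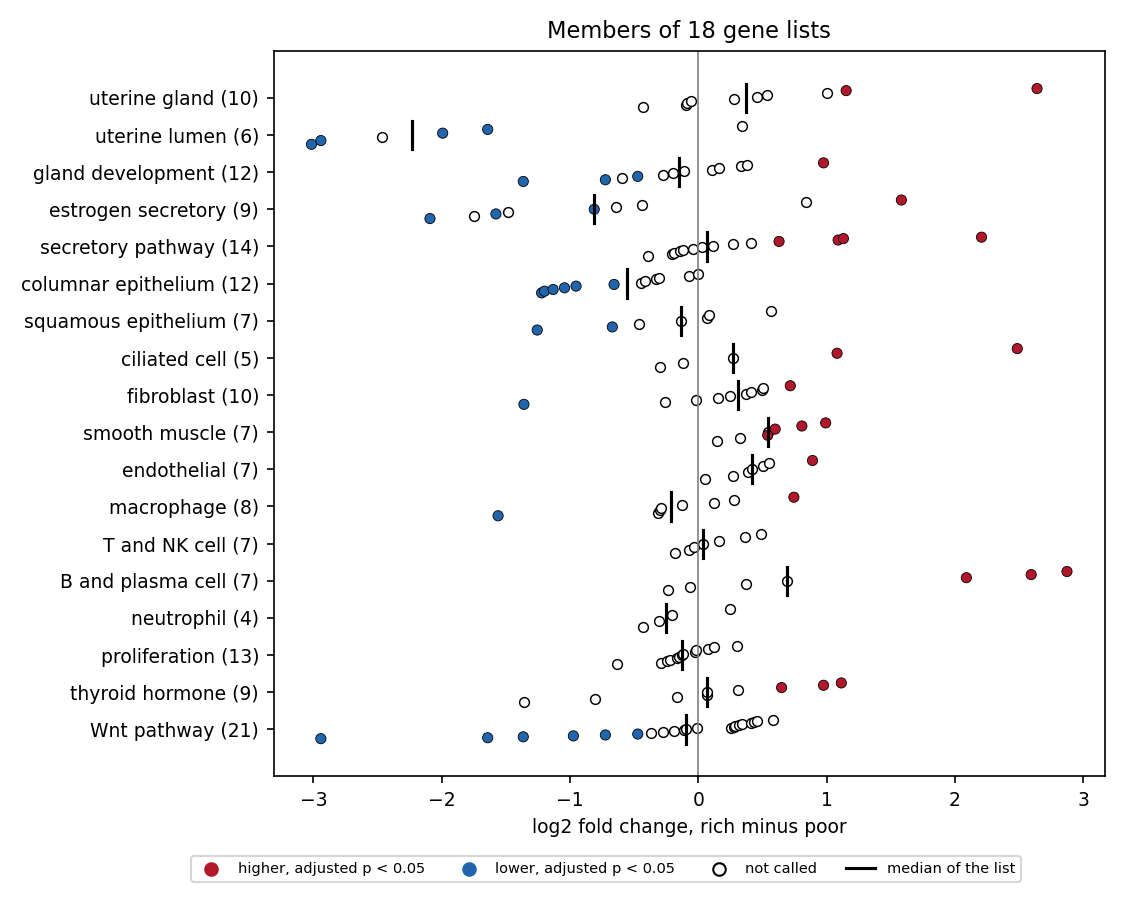
Log2 fold change of rich minus poor regions (x axis) for each tested member of 18 gene lists (y axis, number tested in brackets), filled where edgeR called the gene, with a bar at the median of the list. The luminal gene Wnt7a lies at -2.94 and the antibody genes of the B and plasma cell list reach 2.87, while no proliferation, T and NK cell or neutrophil gene is filled.

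Some markers of other cell types were called, beside 4.7% of all genes called higher and 5.91% called lower. Of 7 B and plasma cell genes 3 rose and 0 fell (median 0.69), all 3 of them genes of secreted antibody. Igkc, the kappa light chain, stood at 6.36, 7.61 and 10.69 log2 CPM in rich and 4.14, 4.68 and 8.46 in poor sums and rose by 2.87 ± 0.25 (adjusted p 5.24e-05, higher in 8 of 8 mice). Igha rose by 2.59 ± 0.38 (adjusted p 0.00128, higher in 7 of 8) and Jchain, which joins secreted IgA, by 2.09 ± 0.25 (adjusted p 0.000418). The summed CPM of the list was 150 to 4162 (median 442) in rich, 78.3 to 1458 (median 122) in poor and 144 to 63684 (median 4509) in stroma regions. The part of plasma cells beside the epithelium in this rise was not tested.

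Smooth muscle genes rose in 4 of 7 (median 0.54), Tagln by 0.99 ± 0.18, Acta2 by 0.81 ± 0.21, Myl9 by 0.60 ± 0.14 and Des by 0.54 ± 0.12. Their summed CPM was 123 to 362 (median 248) in rich, 80.6 to 346 (median 131) in poor and 193 to 2009 (median 771) in stroma regions. Of 10 fibroblast genes Lum rose by 0.72 ± 0.16 and Fbln1 fell by 1.36 ± 0.32, with list sums of 596 to 2050 (median 1357) in rich, 627 to 3101 (median 1245) in poor and 4359 to 20421 (median 10408) in stroma regions. Of 7 endothelial genes Cdh5 rose by 0.89 ± 0.15, with sums of 66.9 to 134 (median 86.5) in rich and 35.3 to 78.8 (median 56.2) in poor regions. Of 8 macrophage genes Lyz2 rose by 0.74 ± 0.18 and Cd68 fell by 1.56 ± 0.24, with sums of 133 to 306 (median 213) and 74.5 to 484 (median 261). None of the T and NK cell (7 tested), neutrophil (4) or proliferation (13) genes passed, with medians of 0.03, -0.26 and -0.13, and Mki67 gave 0.30 ± 0.24. Over all genes 10.6% were called, so the few calls among the fibroblast, endothelial and macrophage genes do not set those lists apart. The part of these cell types in the results was not tested.

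With the fibroblast score and log2 count of each region as covariates and the mouse as a random block, limma on log2 Q3 values of the 40 regions called 1465 genes higher (9.85%) and 1005 lower (6.75%). Of the 1579 genes called in the paired sums, 1376 were called there in the same direction and 0 in the opposite one. The regions are the same as those summed above, and they come from 12 mice with up to 9 from 1 mouse, so the shared calls are no independent support. In that fit the log2 fold changes were 2.57 for Wfdc15b, 2.35 for Foxj1, 2.58 for Igkc, 1.15 for Klf9 and -3.13 for Wnt7a.

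The second plate held regions that the ranking had not used, by the labels from the same animals. Animal numbers and compartments stand in the same titles, so the doubt over the compartment labels of this plate extends to the mice. The pairing by mouse was not checked there. Among the 39 epithelium regions of the plate on their own side the top and bottom 13 were taken, and the 3 mice that by label held both (PV4, WT1 and WT7) were compared. The rich regions there scored 6.50 to 7.62 and the poor ones 2.76 to 4.12. The columnar minus fibroblast value was -1.48 to 0.38 in the rich and 0.04 to 1.55 in the poor regions, and its part in the result was not tested. edgeR called 254 genes higher (1.71%) and 370 lower (2.49%), or 4.19% in all. Leaving out a mouse gave 199 calls without WT7, 327 without WT1 and 1178 without PV4. Of the 1579 genes called on the first plate, 1539 (97.5%) had the same direction on the second and 465 were called there with it, while 0 were called the other way. Over all genes tested 68.9% had the same direction.

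On the second plate Wfdc15b rose by 3.28 ± 0.24 (adjusted p 0.000529), Hp by 3.63 ± 0.42, Degs2 by 2.62 ± 0.21 and Igkc by 3.81 ± 0.62. Wnt7a fell by 4.18 ± 0.32 (adjusted p 0.000629), Prap1 by 5.22 ± 0.80, Gcnt3 by 4.08 ± 0.22 and Calb1, which did not pass on the first plate, by 4.42 ± 0.47 (adjusted p 0.00205). Aldh1a1 rose by 1.02 ± 0.21 (adjusted p 0.0313), Ihh by 0.98 ± 0.19 and Klf9 by 1.07 ± 0.22 (adjusted p 0.0312), while Pgr fell by 1.02 ± 0.21. Sox9 (1.78 ± 0.57, adjusted p 0.144), Foxj1 (1.54 ± 0.41, adjusted p 0.0843) and Thra (0.53 ± 0.21, adjusted p 0.239) had the direction of the first plate and did not pass in 3 mice. Of the macrophage genes called on the first plate, Lyz2, which rose there, gave -0.06, and Cd68 gave -1.54. When all 57 regions labelled epithelium were ranked, without regard to their side, edgeR called 66 genes, and Klf9 turned to -0.52.

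**Figure D5:**
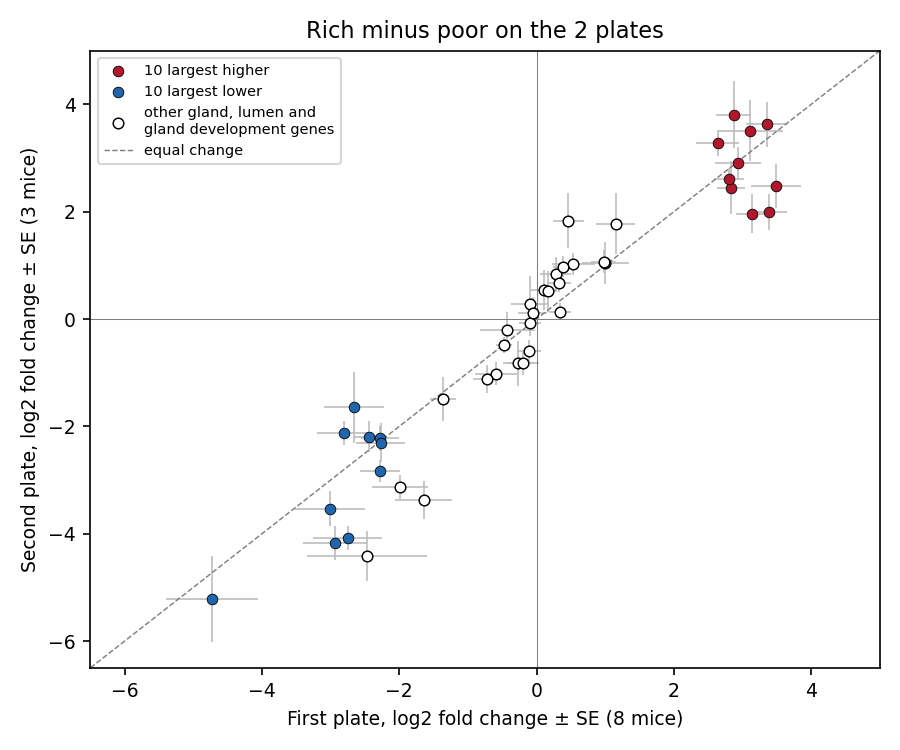
Log2 fold change ± SE of rich minus poor regions on the first plate (x axis, 8 mice) and on the second plate (y axis, 3 mice) for the 20 genes with the largest changes on the first plate (filled) and the other gland, lumen and gland development genes (open), with a dashed line of equal change. All 20 filled genes have the same direction on both plates, and Wnt7a lies at -2.94 and -4.18.

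Whether rich and poor regions differed alike in PV and WT mice was tested in the paired model with a genotype term (3 PV and 5 WT mice). These PV mice were 2.4 to 4.2 and the WT mice 4.0 to 6.3 months old, so the term does not separate genotype from age. edgeR called 0 genes (0.0%), with 846 at an unadjusted p under 0.05, and DESeq2 called 0. Within PV and WT mice, in this order, the log2 fold changes were 2.95 ± 0.42 and 2.45 ± 0.36 for Wfdc15b and -2.92 ± 0.69 and -2.95 ± 0.48 for Wnt7a. Lif gave -1.91 ± 0.50 in PV and 0.43 ± 0.22 in WT mice (adjusted p of the difference 0.661).

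Between genotypes within a class, edgeR called 0 genes (0.0%) in rich regions (3 PV and 7 WT mice, 944 at an unadjusted p under 0.05, DESeq2 2) and 0 (0.0%) in poor regions (4 PV and 6 WT mice, 1160 at an unadjusted p under 0.05, DESeq2 8). In rich regions 132 genes were called without PV1, where 2 PV mice were left. The PV mice behind the rich regions were 2.4 to 4.2 months old and the WT mice 4.0 to 7.4. Behind the poor regions they were 2.4 to 6.3 and 4.0 to 9.0 months old. Genotype and age therefore cannot be told apart in the differences below. Klf9 in poor regions stood at 3.78, 3.95 and 4.35 log2 CPM in PV (lowest, median and highest mouse) and 4.67, 4.96 and 5.06 in WT mice. PV minus WT was -0.89 ± 0.20 (edgeR adjusted p 0.635), which did not pass. In rich regions Klf9 stood at 5.27, 5.41 and 5.52 in PV and 4.83, 6.04 and 6.31 in WT mice, with a difference of -0.53 ± 0.29 (edgeR adjusted p 0.812). The levels of the 2 classes come from separate fits, each with its own scaling. In the paired sums, scaled together, Klf9 was 5.20 or higher in the rich regions of the PV mice. It was 5.13 or lower there in the poor regions of the WT mice. The rich sum of WT5 stood at 4.76, under its own poor sum of 5.07 and under the rich sums of the PV mice. This contrast across class and genotype was not tested. Igkc stood at 7.73, 9.22 and 10.75 in PV and 5.23, 7.06 and 7.67 in WT mice in rich regions, a difference of 2.74 ± 0.51 (edgeR adjusted p 0.779, DESeq2 0.00307), and in poor regions the difference was 3.22 ± 0.67 (edgeR adjusted p 0.635, DESeq2 0.0495). Il33 differed by 2.44 ± 0.89 in rich regions, where 1 of 3 PV mice stood at 8.30 and the highest WT mouse at 4.92, and by 0.57 ± 0.63 in poor regions. Thra differed by 0.82 ± 0.33 and 0.76 ± 0.36 (edgeR adjusted p 0.779 and 0.638).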

How the data were processed

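Regions of 14 mice by the labels were counted on 2 plates. The deposited table of expected counts covers 19962 targets, with each 0 replaced by 1 (1.28% of values). A deposited signal table holds those counts scaled by the authors to the third quartile of each region (Q3). The other deposited values, probe counts per region, gave scores with true zeros. Submitters' notes name R 4.1.2 and Space Ranger, and the build mm10 (GRCm38). No aligner is named there. A negative-probe row was dropped (0.000527% of counts).

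The members, gene lists and tests were chosen with earlier results of these data known. Counts were summed per mouse and class and the sums rounded (150701 to 6436510 per sum), with the mouse as replicate, since regions share animals. The tests were edgeR 4.0.16 quasi-likelihood fits (TMM, R 4.3.3) on the 14881 targets of the authors' filter, with the mouse as a block, because both classes come from the same animal, and Benjamini-Hochberg adjustment. Per-mouse levels used a prior count of 2. Scores were compared by exact permutation of mice. Named genes were the ranking genes, the tested gland, lumen and gland development lists, the 10 largest called changes each way with 1 direction in every mouse, Krt8, Epcam, Dcn, Col1a1, Klf9, Il33 and Thra, and up to 4 members of lowest p in each other list. Other members were named after their values were seen, and 2 genes that the rule names are not reported here. Alternatives were DESeq2 1.42.0, limma 3.58.1 over regions (mouse as random block), other scalings, filters, rankings and class sizes, and each mouse left out. The paired fit was also run on simulated counts with known changes. Those counts held no differences between mice and no ranking of regions, so neither was tested by them. Precision rests on counting error, on how the values spread between mice and on the number of mice.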

Additional observations from a re-analysis of the deposited data

Results flagged for a closer look

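Of 118 sets of per-mouse values screened, 12 held a mouse far from the others by Dixon's 95% limit, which chance passes in about 1 of 20 sets. The values are differences of rich minus poor regions on the log2 scale in 8 mice, and the causes were not tested. PV5, with 1 rich and 1 poor region and 150701 counts in the rich one, was far from the others for Cldn2 (0.0151, next 2.82), Il33 (4.43, next 0.61), Agr2 (4.98, next 2.24), Rsph1 (1.25, next 0.40), C1qc (1.80, next 0.21) and C1qb (1.80, next 0.34). PV1 was for Lif (-2.94, next -0.62) and Sprr1a (-3.94, next -0.46), PV4 for Hoxa10 (1.25, next 0.05) and Igkc (4.63, next 2.95), WT4 for Prom1 (2.22, next 0.42) and WT8 for Wnt16 (-2.54, next -1.18).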

How the results depend on the processing

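The 1579 calls of rich against poor regions ran from 919 (without PV4) to 1618 when each mouse was left out, with 1036 without WT7. They moved to 3727 with limma over regions, 2470 with the covariates, 828 with 15 regions a class and 869 with Cxcl15 alone. Chosen after seeing the data, PV mice alone gave 207, WT mice alone 617 and the set without the WT5 region highest in Foxa2 1896. Without the replicate block, with all mice, the count was 1068, and 919 of the 1579 genes were among them. Agr2 turned there (-0.36). Upper-quartile scaling moved the share of calls that were higher from 44.3% to 57.4%, and the median of all genes between genotypes in poor regions to -0.12. The 624 calls of the second plate moved to 66 with all labelled regions and 28 with the upper against the lower part of the ranking, and ran from 199 (without WT7) to 1178 (without PV4), with 327 without WT1. Without the replicate block they were 789. With all labelled regions the direction turned for Klf9 (-0.52), Krt8 (0.57), Dcn (-1.12), C3 (0.12), Lcn2 (0.32), Cldn7 (0.30), Krt19 (0.33), Lum (-0.59), Pdgfra (-0.98), Myl9 (-0.31) and Emcn (-0.54), and with the upper against the lower part for Cyp2f2 (-0.79), Cldn2 (-0.67), Fbln7 (-0.35) and Clu (-0.75). The causes were not tested. The 0 calls between genotypes became 2 in rich and 8 in poor regions with DESeq2, and with a mouse left out ran from 0 to 132 (without PV1) and from 0 to 1 (Igha, without PV4). The score differences kept their sign and did not pass under any alternative, from -0.93 to -0.19 by genotype and 0.05 to 0.90 by age. Depth limits low genes, since a poor region held a median of 8 Foxa2 counts.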

Other observations

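Over the 60 first-plate epithelium regions the tested genes whose level followed the score most closely, by Spearman rho, were C1qtnf6 (0.82), Hp (0.82), Myrip (0.81) and Degs2 (0.80). Those that ran most against it were Tmem45b (-0.80), Wfdc2 (-0.80), Rab32 (-0.80) and Cndp2 (-0.80). The regions share mice and depth, and these values are a description.

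Dio1, a deiodinase that converts thyroid hormone in liver and kidney, was chosen after its values were seen. It stood at 2.96, 5.04 and 5.80 log2 CPM (lowest, median and highest of 8 mice) in rich and 2.15, 2.92 and 3.78 in poor sums, was higher in rich regions in 8 of 8 mice and rose by 2.34 ± 0.32 (edgeR adjusted p 0.00101). On the second plate it gave 1.76 ± 0.50 (adjusted p 0.0993). Its stroma median was 3.50 log2(CPM + 1), against 4.91 in rich and 2.86 in poor regions. The lowest level among the rich sums, 2.96, is after rounding that of a count of 1 in PV5.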
